A study of Mus musculus with 10 samples.

Results

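Cytochrome P450 genes (symbols beginning Cyp and a digit) were examined in mouse liver that lacked Rev-erb alpha, the nuclear receptor encoded by Nr1d1. The Cyp2b and Cyp4a subfamilies, Cyp17a1, Cyp51 and the bile acid enzymes Cyp7a1, Cyp7b1, Cyp8b1 and Cyp27a1 were left out. A gene was a member if a probe set carried its symbol alone in the array annotation, and 71 of the 19933 genes tested were members, each with 1 probe set. Livers came from 5 wild-type (WT) C57Bl/6 mice bought from a supplier and 5 Nr1d1-/- (KO) mice of a line backcrossed for at least 7 generations to C57Bl/6. Origin of the mice and genotype therefore cannot be told apart. All were males of 10 to 12 weeks on normal chow, kept on a cycle with 12 h of light and 12 h of darkness and killed 10 h after lights on (ZT10). Each liver's RNA was measured on its own Affymetrix Mouse Gene 1.0 ST array, and all values are log2 of the deposited normalized intensities. The labels give no replicate numbers. Replicates are numbered here from 1 to 5 within each genotype in the order of the deposit, and equal numbers do not pair mice.

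P450 enzymes are heme proteins that insert oxygen into lipids, steroids, retinoids, bile acids, drugs and pollutants. Most sit in the endoplasmic reticulum of hepatocytes and receive electrons from P450 reductase, while some steroid and vitamin D enzymes sit in mitochondria. In liver, many family 2 and family 3 genes are induced through the nuclear receptors CAR (Nr1i3) and PXR (Nr1i2), family 1 genes through the aryl hydrocarbon receptor, and sex-biased genes follow growth hormone through STAT5b. The enzymes of drug metabolism are known to follow the clock, in part through the factors DBP, TEF and HLF.

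Cyp2c37 and Cyp2c50 lie close together in the Cyp2c cluster and were both called higher in KO, and Cyp2c39 and Cyp2c38 are next to each other in the same cluster. The 250 bases before the RefSeq start of each (build GRCm38.p6, 5′ to 3′ on the gene's strand) are shown because they form the 2 most alike of the 55 pairs that the 11 Cyp2c members with a listed promoter form. Capitals mark bases that differ from the other gene of the pair, or have no partner, in a global alignment.
Cyp2c37 (chr19:39992174-39992423, plus strand): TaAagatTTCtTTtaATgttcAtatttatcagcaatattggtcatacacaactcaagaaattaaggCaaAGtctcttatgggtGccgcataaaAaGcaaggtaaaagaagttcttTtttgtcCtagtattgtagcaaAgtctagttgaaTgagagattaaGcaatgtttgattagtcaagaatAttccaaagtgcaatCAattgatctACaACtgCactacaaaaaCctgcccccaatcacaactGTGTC
Cyp2c50 (chr19:40089429-40089678, plus strand): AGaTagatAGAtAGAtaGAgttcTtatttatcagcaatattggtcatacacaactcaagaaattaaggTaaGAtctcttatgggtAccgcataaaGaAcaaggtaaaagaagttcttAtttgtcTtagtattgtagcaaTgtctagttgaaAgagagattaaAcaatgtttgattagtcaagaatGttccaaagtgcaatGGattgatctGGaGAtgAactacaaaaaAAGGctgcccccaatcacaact
Cyp2c39 (chr19:39347096-39347345, plus strand): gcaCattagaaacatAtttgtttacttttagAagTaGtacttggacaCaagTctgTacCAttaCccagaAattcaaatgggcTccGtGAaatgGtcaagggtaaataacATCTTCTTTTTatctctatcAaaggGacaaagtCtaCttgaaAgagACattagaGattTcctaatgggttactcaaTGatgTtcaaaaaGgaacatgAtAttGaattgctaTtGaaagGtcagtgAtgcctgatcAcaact
Cyp2c38 (chr19:39463076-39463325, minus strand): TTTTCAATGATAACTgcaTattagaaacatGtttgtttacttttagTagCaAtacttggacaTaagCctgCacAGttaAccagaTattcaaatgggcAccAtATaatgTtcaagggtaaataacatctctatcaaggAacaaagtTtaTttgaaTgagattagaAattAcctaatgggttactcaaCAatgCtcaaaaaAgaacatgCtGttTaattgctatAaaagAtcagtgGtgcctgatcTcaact
The first pair matched at 84.3% of aligned positions and the second at 75.8%, against a median of 50.9% over the 55 pairs. Cyp2c70, the neighbour of Cyp2c50 that was not called, is also shown, with the short motifs found in it in capitals.
Cyp2c70 (chr19:40187287-40187536, minus strand): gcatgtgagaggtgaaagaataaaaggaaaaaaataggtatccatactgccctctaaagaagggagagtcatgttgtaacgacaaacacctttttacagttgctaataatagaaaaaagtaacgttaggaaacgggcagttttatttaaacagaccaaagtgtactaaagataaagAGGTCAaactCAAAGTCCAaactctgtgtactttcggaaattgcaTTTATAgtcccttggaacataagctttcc
Its capitals are the core AGGTCA, bound by many nuclear receptors, Rev-erb alpha included. They also mark CAAAGTCCA, a sequence known for HNF4 alpha, and TATAAA, which lies here on the opposite strand and is printed as TTTATA. Motifs are not marked in the paired sequences above. Of these motifs, Cyp2c39 holds AGGTCA 25 bases before its start and Cyp2c38 holds TATAAA 31 bases before its start. Cyp2c37 and Cyp2c50 hold none of them.

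The same windows were searched on both strands, with overlaps allowed, for the receptor core AGGTCA and the HNF4 alpha sequence CAAAGTCCA. The search also covered TATAAA, the E-box CACGTG and the D-boxes, spelled TTATGTAA or as its variant TTACGTAA. Promoters of 56 members were in the table, 5 of them of called members. AGGTCA was found in 10 of 56 members (17.9%) and in 13.8% of the 27025 genes listed. Among called members it was found in Cyp2c39 and Cyp2j5. TATAAA was found in 22 members (39.3%) against 13.0% of all genes, and CAAAGTCCA in 6 members (10.7%) against 0.381%. Those 6 were Cyp2c65, Cyp2c67, Cyp2c68, Cyp2c70, Cyp3a11 and Cyp3a16, chosen after their values were seen, and none of them was called. The E-box was found in Cyp2j6 alone (1.79% of members against 6.05% of all), and neither D-box in any of the 56 (0.862% and 0.100% of all genes). Many members are close paralogs with windows that are alike, such as Cyp2c67 and Cyp2c68 at 63.1%, so their matches are not independent of each other. These matches are descriptions of letters in this window.

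Of the 71 members, 8 rose in KO liver, none fell and 63 did not pass (limma, with p adjusted by Benjamini and Hochberg's method across the 19933 genes and a threshold of 0.05). The 8 were Cyp2c37, Cyp2c39, Cyp2c50, Cyp2c54, Cyp2c55, Cyp2d12, Cyp2j5 and Cyp39a1. Over all genes tested 5.61% were called, 3.17% higher and 2.44% lower in KO, while 11.3% of the members were called. Of the 34 members whose mean lay above the upper quartile of every array, 6 were called (17.6%), and among all 5294 genes at such intensities 12.7% were called, 7.52% as higher. Of the 8 called members 4 reached 1.5-fold, and Cyp2a22, Cyp2c38 and Cyp21a1 reached that size without passing. Called or not, this size was reached by 7 of 71 members and by 1.59% of all genes. At an unadjusted p under 0.05, a further 12 members passed (16.9%), 10 higher and 2 lower, beside 11.7% of all genes.

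The members' median difference, KO minus WT, was 0.062 on the log2 scale, beside 0.0083 over all genes. It was positive in 47 of 71 members (66.2%) and in 54.1% of all genes. In 7 members the 5 KO arrays all read above the 5 WT arrays, and in none below. Such separation in either direction was seen in 7.00% of all genes. Differences were under 0.2 in size in 59 members (83.1%) and in 89.0% of all genes. The plot of difference against mean intensity shows 2 called members between the quartiles of the arrays and 6 above them.

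**Figure D1:**
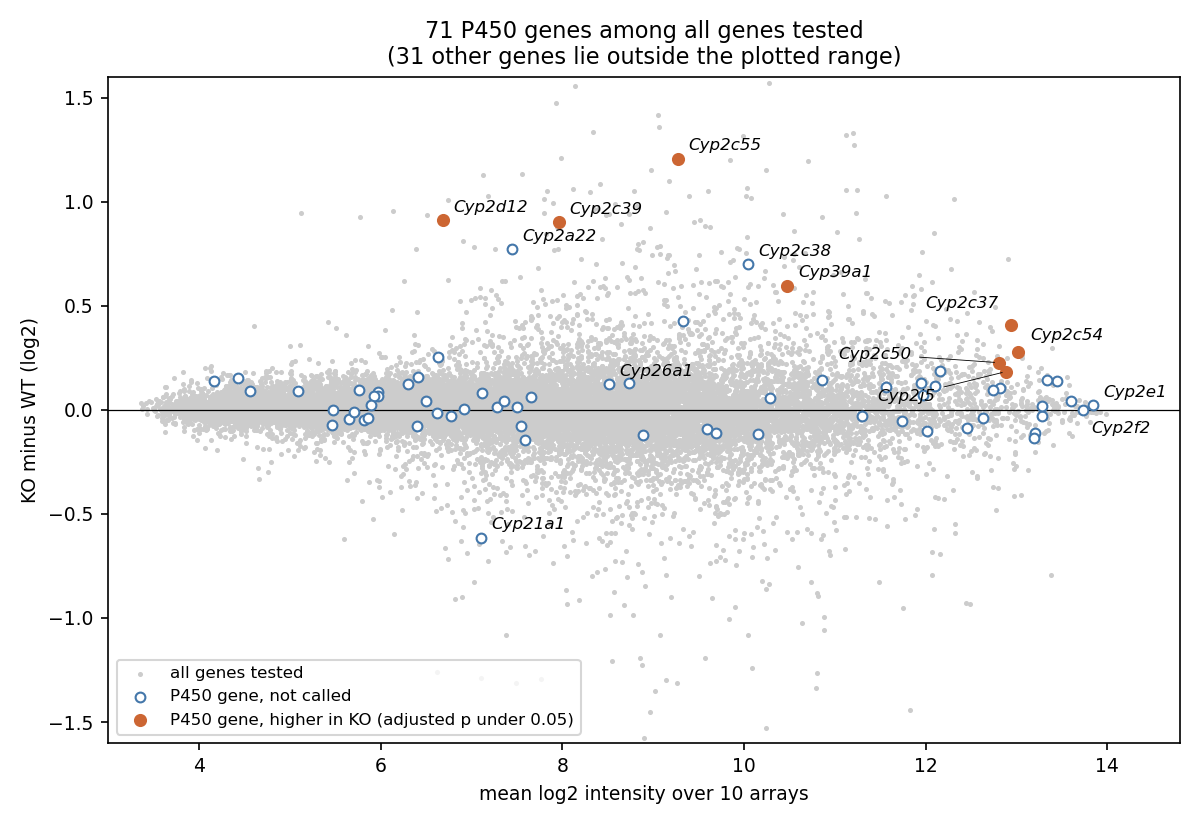
KO minus WT (log2, vertical) against the mean log2 intensity over 10 arrays (horizontal) for all genes tested (grey), the P450 genes not called (open) and the 8 called (filled). All 8 filled points lie above 0, with Cyp2c55 highest at 1.21, and 31 other genes lie outside the plotted range.

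Median intensities of the arrays lay between 156 and 165. Arrays of WT replicate 1 and KO replicates 4 and 5 had the widest interquartile ranges (2.96 to 2.99), and the fit was repeated without them. Without these 3 arrays, 2 members were called, Cyp2c37 and Cyp2d12, with 527 genes called in all. Nr1d1 itself, by its only probe set, read 10.00, 9.80, 9.60, 9.85 and 9.64 in WT and 9.29, 9.77, 10.54, 9.95 and 10.04 in KO, and no source used here says whether that probe set lies in the deleted part. It therefore does not check the genotype labels. Hepatocyte markers averaged 13.67 to 13.71 in WT and 13.69 to 13.70 in KO over 6 measured genes. Markers of kidney tubule (6.36 to 6.49 against 6.29 to 6.63) and adrenal cortex (5.65 to 5.75 against 5.67 to 5.78) were low and overlapped between the genotypes. Of 5 cholangiocyte markers Sox9 rose (0.62, adjusted p = 0.0129, not passing without the 3 arrays at 0.0666), and the list averaged 6.69 to 6.82 in WT and 6.80 to 7.01 in KO. Of 5 intestinal markers Fabp2, a fatty acid binding protein gene, rose (0.42, adjusted p = 0.0405, and up to 0.0970 with WT replicates 2, 3, 4 or 5 or KO replicates 2, 3 or 4 left out or 0.0571 after centring). The intestinal list averaged 7.03 to 7.12 in WT and 7.15 to 7.56 in KO, without overlap. In it Lgals4, which did not pass (adjusted p = 0.557), read 8.16, 8.14, 8.20, 8.64 and 8.54 in WT. Its KO values were 8.04, 8.25, 9.48, 8.45 and 9.18. The part of these markers in the results was not tested. No gene passed among 6 endothelial (8.80 to 9.08 in WT, 8.81 to 9.17 in KO), 6 macrophage (8.86 to 9.35, 8.78 to 9.10) or 6 stellate cell markers (9.17 to 9.45, 9.16 to 9.45). In whole liver, fewer cells of a type and less RNA per cell cannot be told apart.

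Members of the Cyp2c subfamily, which oxidize arachidonic acid, retinoids and many drugs, made up 5 of the 8 called. Of 13 measured, 5 rose and 8 did not pass, with a median difference of 0.23. The family consists of close paralogs, so probe sets may share signal and single values are uncertain. Cyp2c37, an arachidonic acid hydroxylase, read 12.72, 12.74, 12.62, 12.71 and 12.87 in the WT livers and 13.14, 13.24, 13.00, 13.23 and 13.09 in the KO livers. All 5 KO values exceeded all 5 WT values. The group means were 12.73 ± 0.088 and 13.14 ± 0.10 (SD, n = 5 each), a rise of 0.41 (SE 0.060, 1.33-fold, limma adjusted p = 0.00161).

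Cyp2c54 and Cyp2c50, which encode arachidonic acid epoxygenases and follow Cyp2c37 in gene order, moved in the same direction by less. Cyp2c54 read 12.89, 12.74, 12.81, 12.97 and 12.97 in WT and 13.14, 13.21, 13.07, 13.26 and 13.09 in KO. It rose by 0.28 (SE 0.059, 1.21-fold, limma adjusted p = 0.0158). Again no KO liver overlapped with the WT livers. Cyp2c50 read 12.71, 12.59, 12.62, 12.76 and 12.78 in WT and 12.89, 12.97, 12.82, 13.06 and 12.85 in KO, where the lowest KO liver (replicate 3) lay just above the highest WT liver (replicate 5). It rose by 0.23 (SE 0.059, 1.17-fold, limma adjusted p = 0.0434). In Cyp2c37, Cyp2c54 and Cyp2c50 alike, KO replicate 3 was the lowest KO liver. Cyp2c50 was no longer called with WT replicates 1, 2 or 3 or KO replicates 1, 2, 4 or 5 left out (adjusted p up to 0.107). After centring of the arrays on their medians it did not pass (0.0926). Without the 3 arrays of widest interquartile range Cyp2c50 (0.176) and Cyp2c54 (0.107) were not called.

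Cyp2c55, a gene known to be inducible through CAR and PXR, had the largest rise of all members. It read 8.95, 7.80, 8.65, 8.68 and 9.28 in WT and 10.07, 10.28, 8.85, 9.85 and 10.35 in KO. KO replicate 3 lay within the WT range and the other 4 KO livers lay above it, while WT replicate 2 was the lowest of all. The means were 8.67 ± 0.55 and 9.88 ± 0.61 (SD, n = 5 each), a rise of 1.21 (SE 0.30, 2.31-fold, limma adjusted p = 0.0338). Cyp2c39, known for hydroxylating retinoic acid, read 7.71, 6.51, 7.51, 7.96 and 7.87 in WT and 8.29, 8.32, 8.60, 8.39 and 8.47 in KO. WT replicate 2 was again the lowest, and no KO liver overlapped with WT. Cyp2c39 rose by 0.90 (SE 0.22, 1.87-fold, limma adjusted p = 0.0315), and without WT replicate 2 by 0.65. It was no longer called with WT replicate 3 or KO replicates 1, 2, 3, 4 or 5 left out (adjusted p up to 0.0775), and Cyp2c55 with WT replicates 2, 3 or 4 or KO replicates 1, 2, 4 or 5 left out (up to 0.0834). With a variance model that has a trend and a robust prior, Cyp2c39 (0.0587) and Cyp2c55 (0.0877) did not pass. Neither passed when the 3 arrays of widest interquartile range were dropped (0.166 and 0.189).

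The other Cyp2c members did not pass. Cyp2c38, beside Cyp2c39, read 10.20, 8.43, 9.86, 9.84 and 10.16 in WT and 10.12, 10.48, 10.55, 10.34 and 10.50 in KO, with WT replicate 2 far below the rest (difference 0.70, adjusted p = 0.191). Cyp2c66 read 6.55, 6.44, 6.45, 6.51 and 6.58 in WT and 6.75, 6.55, 6.71, 6.99 and 6.79 in KO (difference 0.25, adjusted p = 0.0590), and only KO replicate 2 overlapped with WT. Without that liver it passed (adjusted p = 0.0206). Cyp2c29, a CAR target, read 13.41, 13.31, 13.35, 13.42 and 13.39 in WT and 13.54, 13.54, 13.35, 13.61 and 13.54 in KO. KO replicate 3 lay apart below the other KO livers, and the difference was 0.14 (adjusted p = 0.174). Cyp2c70, which makes muricholic acid in mice, read 13.21, 13.39, 13.25, 13.18 and 13.26 in WT and 13.18, 13.19, 12.88, 13.18 and 13.19 in KO, again with KO replicate 3 apart (difference -0.13, adjusted p = 0.345). In each of these 4 genes the genotypes overlapped. Cyp2c23, an epoxygenase outside the cluster, read 13.32, 13.21, 13.28, 13.28 and 13.38 in WT and 13.26, 13.30, 13.22, 13.29 and 13.26 in KO, at a difference of -0.03 (95% interval -0.12 to 0.07). Cyp2c65, Cyp2c67 and Cyp2c68 had differences of 0.14, -0.04 and -0.05, and Cyp2c65 lay below the lower quartile of all 10 arrays.

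In gene order, the 3 neighbours Cyp2c37, Cyp2c54 and Cyp2c50 were called together. The genes on either side of them that could be tested, Cyp2c68 and Cyp2c70, had negative differences. The promoters of Cyp2c37 and Cyp2c50 printed above are the most alike of all pairs compared, and Cyp2c54 had no listed promoter. In the next pair, Cyp2c39 and Cyp2c38 (75.8%), only Cyp2c39 was called. Whether likeness of promoters bears on the calls was not tested.

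**Figure D2:**
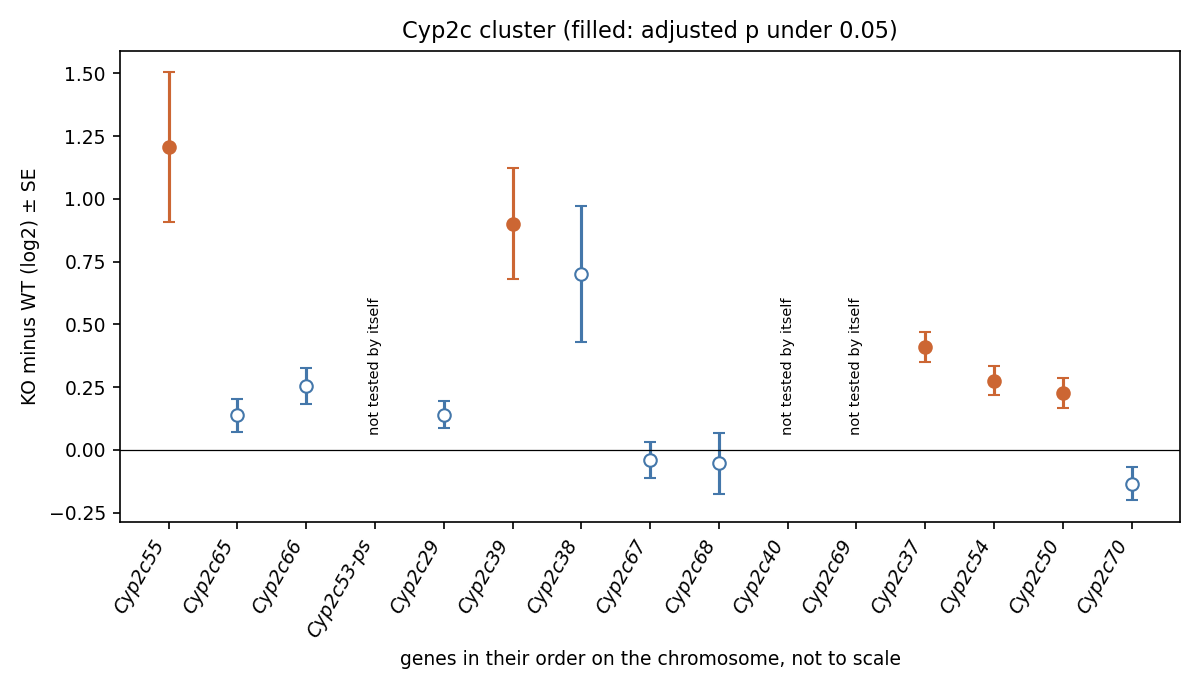
KO minus WT (log2, vertical, ± SE of the fit, 5 arrays per genotype) for the Cyp2c cluster genes in RefSeq order (horizontal, not to scale); filled points passed the test. The 3 neighbours Cyp2c37, Cyp2c54 and Cyp2c50 lie between 0.23 and 0.41, while Cyp2c70 lies at -0.13; genes without a probe set of their own are marked.

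Cyp2d12 showed the second largest rise among the members and the smallest p. It read 6.21, 6.34, 6.35, 6.09 and 6.14 in WT and 7.16, 6.83, 7.37, 7.47 and 6.85 in KO. The lowest KO value, of replicate 2, was well above the highest WT value. The WT values were dim, close to the lower quartiles of the WT arrays (6.00 to 6.10). Whether brighter Cyp2d genes share signal with this probe set was not tested. The means were 6.23 ± 0.12 and 7.14 ± 0.30 (SD, n = 5 each), a rise of 0.91 (SE 0.12, 1.88-fold, limma adjusted p = 0.000726). The call held in all 20 alternatives tried. The other 9 Cyp2d members, which belong to the same cluster, did not pass and had differences from -0.09 to 0.13. They include Cyp2d37-ps, a pseudogene by its symbol, with a difference of 0.11 and a mean of 11.56. Cyp2d26 read 13.59, 13.58, 13.57, 13.59 and 13.60 in WT and 13.61, 13.62, 13.64, 13.70 and 13.57 in KO, a difference of 0.04 (95% interval -0.05 to 0.13). Cyp2d9, a male-biased testosterone hydroxylase, had -0.09 (95% interval -0.21 to 0.04), and Cyp2d10, Cyp2d13 and Cyp2d22 had 0.07, 0.13 and 0.09.

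Among 6 Cyp2j members, Cyp2j5, an arachidonic acid epoxygenase of liver and kidney, rose and 5 did not pass. It read 12.81, 12.74, 12.74, 12.85 and 12.85 in WT and 12.95, 12.98, 12.95, 12.99 and 13.03 in KO, without overlap and with little spread in either genotype. The rise was small at 0.18 (SE 0.043, 1.14-fold, limma adjusted p = 0.0251). It was no longer called with WT replicates 2 or 3 or KO replicates 2, 4 or 5 left out (adjusted p up to 0.0674), nor with the 3 of widest interquartile range left out (0.155) or after centring (0.0850). Cyp2j9, its neighbour, had a difference of 0.43 (adjusted p = 0.225), Cyp2j6 0.14, and Cyp2j11, Cyp2j12 and Cyp2j13 lay below the lower quartile of all 10 arrays.

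Cyp39a1, an oxysterol hydroxylase that prepares side-chain oxidized cholesterol for bile acid synthesis, was the called gene of the steroid, sterol, vitamin D and retinoid group. It read 10.01, 10.47, 10.35, 9.95 and 10.13 in WT and 10.93, 10.55, 10.85, 10.69 and 10.88 in KO. The lowest KO liver, KO replicate 2, lay just above the highest WT liver, WT replicate 2. The means were 10.18 ± 0.22 and 10.78 ± 0.16 (SD, n = 5 each), a rise of 0.60 (SE 0.10, 1.51-fold, limma adjusted p = 0.00489). Leaving out any 1 array kept the call (adjusted p up to 0.0155), and leaving out the 3 of widest interquartile range ended it (0.0716) at a difference of 0.55.

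**Figure D3:**
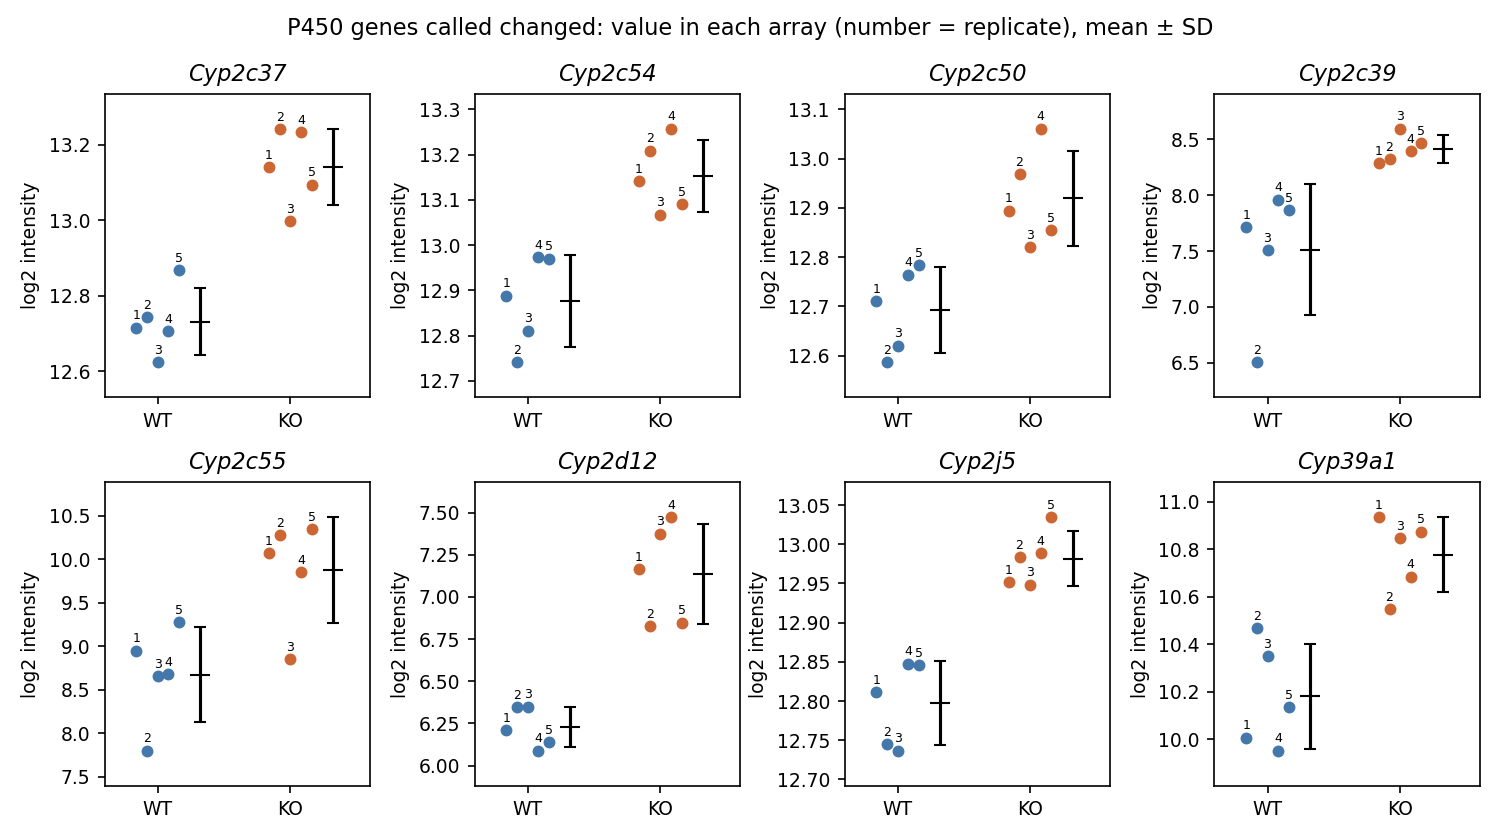
Log2 intensity (vertical) in each WT (blue) and KO (orange) array for the 8 P450 genes called, with the replicate number above each point and the mean ± SD beside it; each panel has its own axis, which does not start at 0. KO points lie above all WT points in 7 panels, and in Cyp2c55 KO replicate 3 falls within the WT range.

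The other 10 genes of that group did not pass. Cyp21a1, a steroid hydroxylase of the adrenal cortex, had the most negative difference of all members. It read 6.91, 8.26, 7.62, 6.93 and 7.35 in WT and 6.72, 6.79, 6.84, 6.71 and 6.93 in KO, so that the WT livers spread widely and the KO livers did not (difference -0.61, 95% interval -1.06 to -0.16, adjusted p = 0.121). The adrenal genes Cyp11a1 and Cyp11b1 lay below the lower quartile of all 10 arrays. Cyp26a1, the main retinoic acid hydroxylase of liver, varied most among mice, reading 8.27, 9.93, 7.84, 8.35 and 7.86 in WT and 10.66, 8.27, 7.17, 8.90 and 7.88 in KO. Its highest liver of each genotype was WT replicate 2 and KO replicate 1, and its difference of 0.12 has a 95% interval of -1.12 to 1.36. Cyp26b1, Cyp26c1, Cyp11b2, Cyp20a1, Cyp27b1, the vitamin D activating enzyme, and Cyp46a1, a cholesterol hydroxylase of brain, had differences from -0.14 to 0.08.

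In the Cyp2a subfamily neither of the 2 members passed. Cyp2a22 read 7.33, 6.80, 7.10, 7.04 and 7.04 in WT and 7.45, 7.78, 8.69, 8.0 and 7.25 in KO, where KO replicate 5 lay below WT replicate 1 and KO replicate 3 far above all others (difference 0.77, adjusted p = 0.0598). It passed with array weights (adjusted p = 0.0349) and without KO replicate 5 (0.0231). Cyp2a12 had 0.10 (adjusted p = 0.240). Cyp2a5 and Cyp2a4, coumarin and steroid hydroxylases, share 1 probe set and could not be tested singly. That probe set read 13.32, 13.31, 13.31, 13.40 and 13.43 in WT and 13.47, 13.58, 13.46, 13.58 and 13.55 in KO, without overlap, and missed the threshold (difference 0.17, adjusted p = 0.0554 in the fit with shared probe sets added).

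None of 6 Cyp3a members passed, and all 6 differences were positive, with a median of 0.10. Cyp3a11, a main drug oxidase of mouse liver and a PXR target, read 13.34, 13.16, 13.20, 13.35 and 13.32 in WT and 13.31, 13.32, 13.18, 13.39 and 13.28 in KO, and the genotypes overlapped throughout (difference 0.02, 95% interval -0.10 to 0.14). Cyp3a25, another of the subfamily, read 13.28, 13.14, 13.15, 13.46 and 13.32 in WT and 13.39, 13.42, 13.36, 13.43 and 13.44 in KO (difference 0.14, adjusted p = 0.247), and WT replicate 4 was the highest of all 10. Cyp3a57 read 4.36, 4.26, 4.25, 4.49 and 4.38 in WT and 4.54, 4.56, 4.44, 4.52 and 4.45 in KO (difference 0.15, adjusted p = 0.138). In Cyp3a57 only WT replicate 4 lay inside the KO range, and the probe set lay under the lower quartile of all 10 arrays. Cyp3a44 and Cyp3a16, known as female-biased, had 0.06 (95% interval -0.15 to 0.26) and 0.09 (-0.04 to 0.22), the latter also under every array's lower quartile. Cyp3a13 had 0.11.

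The members with the brightest probe sets mostly showed small differences. The intensity of a probe set also depends on its probes, so the order of these levels is not an order of transcripts. The 10 brightest averaged 13.01 to 13.85, near the highest value of any probe set (14.16), and whether differences are compressed there was not tested. Of them Cyp2c54 was called, and the other 9 had differences from -0.13 to 0.14. Cyp2e1, which oxidizes ethanol and acetaminophen around the central vein, read 13.83, 13.82, 13.84, 13.82 and 13.86 in WT and 13.86, 13.86, 13.82, 13.90 and 13.84 in KO. Its difference was 0.02 with a 95% interval of -0.06 to 0.10. Cyp2f2, a periportal enzyme that oxidizes naphthalene, read 13.76, 13.72, 13.70, 13.74 and 13.76 in WT and 13.72, 13.72, 13.74, 13.74 and 13.76 in KO, with an interval of -0.08 to 0.08.

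The family 1 genes, targets of the aryl hydrocarbon receptor, did not pass. Cyp1a2, which oxidizes caffeine and arylamines, read 13.25, 13.29, 13.19, 13.22 and 13.34 in WT and 13.08, 13.17, 13.00, 13.22 and 13.25 in KO, with overlap (difference -0.11, 95% interval -0.23 to 0.01). Cyp1a1 had 0.09 and Cyp1b1 0.16. None of the 9 other family 2 members passed, with a range from -0.11 to 0.07 that includes Cyp2r1, a vitamin D hydroxylase, at -0.11 and Cyp2u1, a fatty acid hydroxylase, at -0.11. Among 11 members of family 4, whose enzymes hydroxylate fatty acids and leukotrienes, none passed. They include Cyp4f41-ps, also a pseudogene by its symbol, at -0.03. Cyp4f15 read 12.04, 11.91, 11.96, 12.23 and 12.18 in WT and 12.26, 12.21, 12.22, 12.22 and 12.36 in KO, with WT replicate 4 inside the KO range (difference 0.19, adjusted p = 0.134), and Cyp4f14 had -0.10 (adjusted p = 0.274). In all, 15 members had a mean under the lower quartile of each of the 10 arrays. None of these 15 was called, and of all 4045 genes that dim, 0.371% were. The plot of all members by subfamily gives each difference with its interval.

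**Figure D4:**
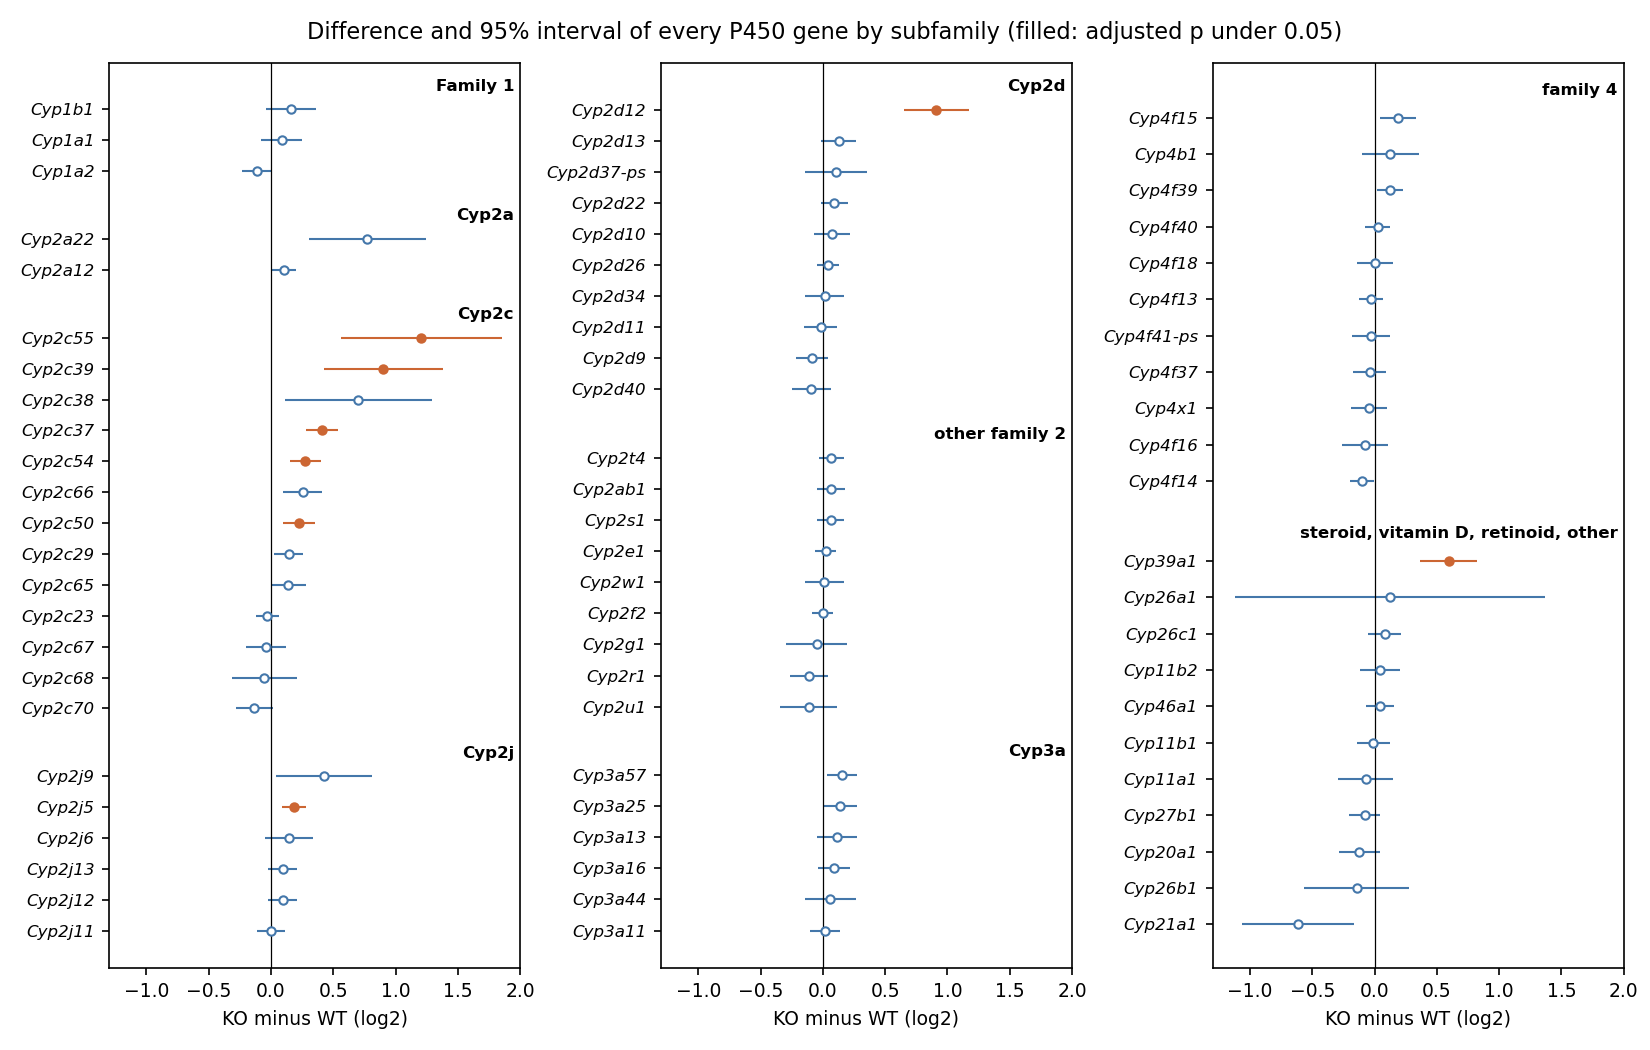
KO minus WT (log2, horizontal) with the 95% interval of the limma fit for each of the 71 P450 genes, grouped by subfamily; filled points passed the test. Called genes are spread over the Cyp2c (5 of 13), Cyp2d (1 of 10), Cyp2j (1 of 6) and steroid and vitamin groups (1 of 11), and Cyp26a1 has the widest interval.

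Besides that of Cyp2a5 with Cyp2a4, 5 probe sets held several symbols of P450 genes within the rule, and 4 of them held the symbol of a member. None passed in the fit that added shared probe sets. The probe set of Cyp3a59, Cyp3a57 and Cyp3a25 had a difference of 0.24 (adjusted p = 0.101). That of Cyp2c69, Cyp2c67, Cyp2c68 and Cyp2c40, the first and last of them known as female-biased, had -0.04. Those of Cyp3a41b, Cyp3a44 and Cyp3a41a, of the same 3 with Cyp3a11, and of Cyp4v3 with Klkb1 had 0.04, 0.04 and -0.03.

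The genes of proteins that work with P450 enzymes or control their transcription were listed with earlier results known. Of 26 measured regulators 5 rose and 2 fell (26.9% called), and 19 did not pass, with a median difference of 0.028. Over all genes 5.61% were called, and 12.7% of those with a mean above the upper quartile of every array. Of the regulators, 19 read above the upper quartile in every array. The same shares of all genes stand beside the lists that follow. Nr1i3, which encodes CAR, read 11.77, 11.24, 11.48, 12.19 and 12.14 in WT and 12.18, 12.46, 12.47, 12.41 and 12.38 in KO. KO livers lay close together, WT replicates 2 and 3 were lowest, and WT replicate 4 lay above KO replicate 1. It rose by 0.62 (SE 0.16, limma adjusted p = 0.0409). It was no longer called with WT replicates 1, 2 or 3 or KO replicates 2, 3, 4 or 5 left out (adjusted p up to 0.104), nor with the 3 of widest interquartile range left out (0.214). With all arrays kept, Nr1i3 did not pass after centring on the median (0.0532), with the trend and robust prior (0.0831) or with array weights (0.0609). Stat5b and Stat5a, which carry the growth hormone signal, rose by 0.72 and 0.42 (adjusted p = 5.84e-05 and 0.00163), and for Stat5b the WT livers read 9.44, 9.46, 9.40, 9.71 and 9.61 and the KO livers 10.17, 10.24, 10.27, 10.17 and 10.36. In neither did the genotypes overlap. The PAR bZIP gene Hlf rose by 0.35 and Nfil3, which encodes a repressor at the same D-boxes, by 1.15 (adjusted p = 0.00286 and 0.00134). Esr1, the estrogen receptor gene, fell by 1.23 (adjusted p = 0.000135), reading 9.51, 9.22, 9.77, 9.35 and 9.62 in WT and 8.37, 8.34, 7.95, 8.07 and 8.60 in KO, far apart. The liver factor Onecut1 fell by 1.26 (adjusted p = 0.0296, and up to 0.0798 with WT replicates 2, 3 or 5 or KO replicates 1, 3, 4 or 5 left out). Onecut1 did not pass either with the variance model that has a trend and a robust prior (0.0862), with array weights (0.0556) or without the 3 arrays (0.183).

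Regulators that did not pass include Nr1i2 (PXR) at 0.16 (95% interval 0.01 to 0.32), Ppara at 0.22, Ahr at 0.07 and Hnf4a at 0.01. Dbp and Tef, the other PAR bZIP genes, had -0.01 and -0.10. Of 7 measured electron donors and partners, Pgrmc2, a heme-binding membrane protein gene, rose by 0.26 (adjusted p = 0.0392, and up to 0.0986 with WT replicates 2, 3 or 4 or KO replicates 2, 3, 4 or 5 left out). Pgrmc2 did not pass after centring (0.0975), with array weights (0.0537) or without the 3 arrays (0.165). The other 6 did not pass, with cytochrome b5 (Cyb5a) at 0.01 and ferredoxin (Fdx1) at -0.34. The P450 reductase gene Por was listed but was not among the genes tested, nor were Fdxr and Fdx1l. Of 6 other genes listed as aryl hydrocarbon receptor targets, the glutathione transferase Gstt3 rose by 1.15 (adjusted p = 2.05e-06) and Nqo1, Tiparp and 3 others did not pass. Of 10 hydrolases the carboxylesterase Ces3b fell by 0.25 (adjusted p = 0.0344, and up to 0.0865 with WT replicates 2, 3 or 5 or KO replicates 1, 2, 3, 4 or 5 left out) and 9 did not pass. Of 9 other oxidases the monoamine oxidase Maob rose by 0.22 (adjusted p = 0.0106) and 8 did not pass.

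Zonation markers were set beside these because Cyp2e1, Cyp1a2 and many Cyp2c genes are made near the central vein and Cyp2f2 near the portal vein. Of 10 pericentral markers Lect2, a secreted liver protein gene, rose by 0.23 (adjusted p = 0.0154) and 9 did not pass, with glutamine synthetase (Glul) at -0.04 and Oat at 0.17. The list averaged 11.08 to 11.29 in WT and 11.19 to 11.32 in KO. Of 7 periportal markers the histidine lyase Hal rose by 0.42 (adjusted p = 0.00161), Cdh1 (E-cadherin) fell by 0.44 (0.00789) and 5 did not pass, and the list averaged 11.75 to 11.90 in WT and 11.78 to 11.89 in KO. Without the 3 arrays of widest interquartile range Lect2 (0.0777, and 0.0580 after centring), Cdh1 (0.0756) and, of the oxidases, Maob (0.0706) did not pass. The part of zonation in the P450 results was not tested.

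**Figure D5:**
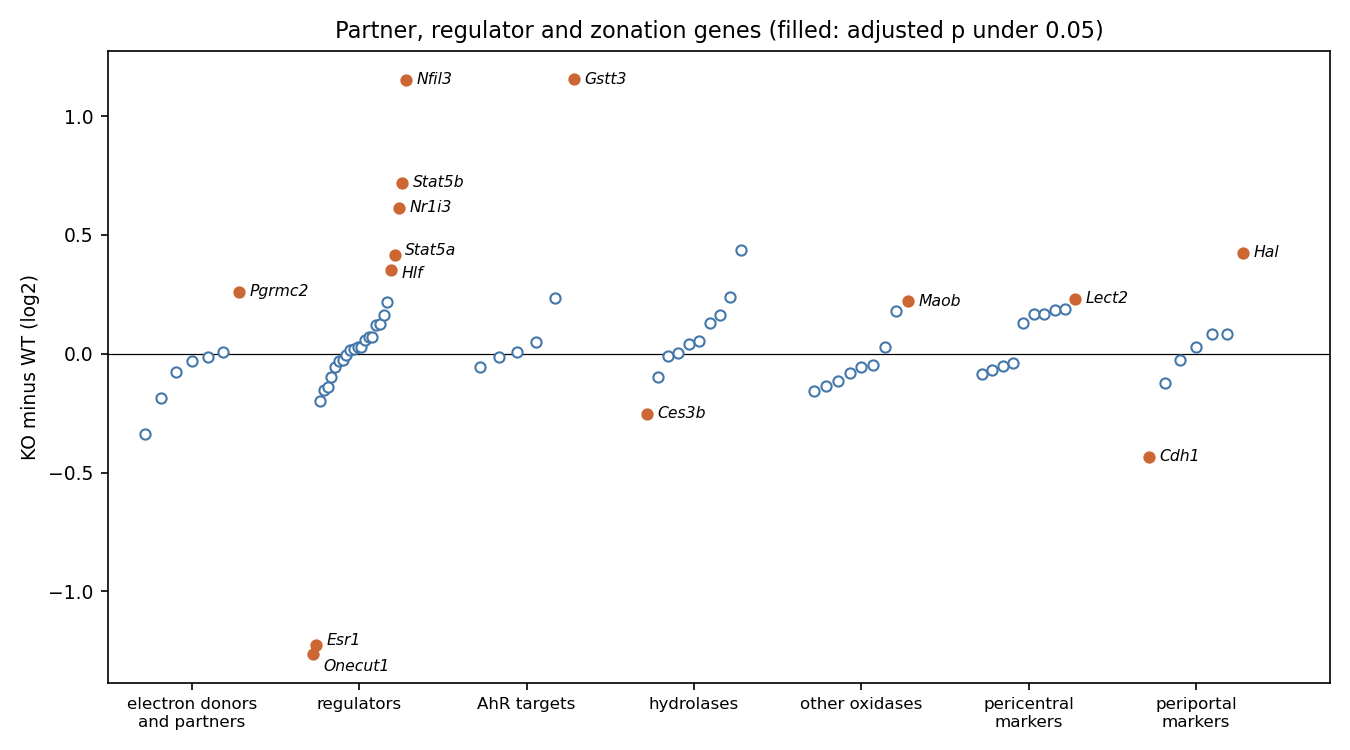
KO minus WT (log2, vertical) for each measured gene of 7 lists (horizontal) of P450 partners, regulators, related enzymes and zonation markers; filled, named points passed the test, and points within a list are sorted by value. Regulators hold both the largest decreases, Onecut1 at -1.26 and Esr1 at -1.23, and a rise of Nfil3 by 1.15.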

How the data were processed

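The authors deposited probe set intensities, normalized between arrays, on a linear scale for 10 arrays. The submitters' processing notes name RMA and Partek, without versions, and the genome build and filters are not given in the sources used here. RMA narrows the spread of dim probe sets, and without detection calls the height over background cannot be given. The number of arrays limits the precision. Here log2 was taken, probe sets with 1 symbol in the platform annotation were kept, and per gene the one of highest mean was used (19933 genes). Entrez IDs of all 71 members were found in RefSeq's table (GRCm38.p6), used for gene order, and 0 symbols changed. KO was compared with WT by limma 3.58.1 (R 4.3.3, lmFit and eBayes, two-sided), without covariates, and every adjusted p comes from it. The mice are separate animals with 1 array each, so p-values set the difference against the spread of mice and array measurement together. The fit was also tried on simulated data with the means and spreads of these arrays and known changes in 200 genes. It recovered 14.7% of changes of 0.2 on the log2 scale, and 78.5% and 96.7% of those of the larger sizes used. A member that did not pass can therefore still differ by a small amount. The shares recovered need not hold for members that vary widely among mice, which can differ by more without passing. Cyp2a22 (0.77), Cyp2c38 (0.70) and Cyp21a1 (-0.61) did not pass, and the interval of Cyp26a1 ran from -1.12 to 1.36.

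Values per array are given for members called, the 5 next by p and the 10 of highest mean, and every list gene called is named. Outside this rule, array values of Cyp2c38 and Cyp26a1 were also printed, with their spread known. Further members appear by range, or by name in counts of 5 or fewer and in their subfamily. Members, lists and tests were chosen with earlier results of these data known. Promoters are from RefSeq and were aligned with Biopython 1.88 (global, match 1, mismatch -1, gap open -3, extend -0.5). Alternatives were other choices among a gene's probe sets, leaving out dim genes, centring, quantile normalization, another variance model, array weights, a pseudocount of 16 and leaving out arrays.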

Additional observations from a re-analysis of the deposited data

Results flagged for a closer look

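Dixon's test was run on the 22 members chosen by call, p or mean and on the 16 list genes called, in each genotype. In 2 of these 76 groups of 5 arrays, 1 array lay apart, and chance gives about 1 in 20. Both were KO replicate 3 and both were Cyp2c genes. Cyp2c29 read 13.35 there, below the next KO liver at 13.54, and without that array its rise passed the test (adjusted p = 0.0474). Cyp2c70 read 12.88 there, below the next KO liver at 13.18. Cyp2c38 and Cyp26a1, printed above, were not among the groups tested. Among WT livers, replicate 2 was the lowest in Cyp2c38 (8.43) and the highest in Cyp26a1 (9.93). KO replicate 3 was the lowest KO liver in 23 of the 71 members and the highest in 17. By the same count, WT replicate 2 was the lowest WT liver in 26 and the highest in 9. WT replicate 5 was the highest WT liver in 22, and KO replicate 4 the highest KO liver in 21.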

How the results depend on the processing

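Under 20 alternatives no member was called lower in KO, and the count of members called, all of them higher, was 8 with all arrays and 4 to 8 when 1 array was left out. It was 6 with arrays centred on the median (without Cyp2c50 and Cyp2j5), 6 with the other variance model (without Cyp2c39 and Cyp2c55), 9 with array weights (with Cyp2a22 added) and 8 in the other settings of processing. Without the 3 arrays of widest interquartile range, an alternative chosen with the data known, 2 members were called, with 527 against 1119 over all genes, and the count of partner and regulator genes called was 7 against 14 of 74, with fewer arrays in the fit. Cyp2c37 and Cyp2d12 kept the call in all 20 alternatives, and Cyp2c54 and Cyp39a1 in all but the last named. The dim filter left 56 members. Signs were followed only in the 22 members chosen by call, p or mean and in the list genes called. They turned for Cyp2f2 and Cyp3a11, which lie at 0 within error. Cyp2f2 read 0.00694 with quantile normalization and ranged from -0.0103 to 0.00638 when 1 array was left out. Cyp3a11 read -0.00532 with quantile normalization and ranged from -0.00835 to 0.0489 when 1 array was left out. No paired analysis was possible because the labels give no replicate numbers. Many probe sets lack a known signal over background, and bright ones lie near the top of the scale.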
